A study of Mus musculus with 4 samples.

Results

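Txnip, its relatives among the alpha-arrestins and the glucose-sensing transcription factors ChREBP and MondoA were followed in Hepa1-6, a mouse hepatocellular carcinoma cell line, with and without a knockout of Acvr2a, a type II receptor for activin. The genes were chosen by symbol: Txnip, Arrdc1, Arrdc2, Arrdc3, Arrdc4, Mlxipl, Mlxip, Mlx, Klf10 and Rgs16, which are 10 of the 54838 genes in the deposited files. The list was drawn up with KO against NC results of these libraries known, so the differences of these 10 genes between the groups are described below and carry no test.

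RNA was sequenced from 2 NC libraries, whose genotype label gives wild type for Acvr2a, and 2 KO libraries, labelled Acvr2a knockout. The cells are described as subclones in the KO group, without saying whether KO 1 and KO 2 are separate subclones, so the knockout and the history of a clone cannot be told apart. If the replicates are cultures of 1 clone, their spread may be technical. The meaning of NC, the culture medium, its glucose content, the cell density and the ages of the cultures are not given in the sources used here.

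TXNIP binds thioredoxin and restrains glucose uptake by helping to internalise glucose transporters, and it is among the genes most responsive to glucose in liver cells. Its transcription is driven by MondoA (encoded by Mlxip) and ChREBP (encoded by Mlxipl), which enter the nucleus when glucose phosphates accumulate and bind carbohydrate response elements as partners of MLX. TXNIP itself and ARRDC1 to ARRDC4 are alpha-arrestins, adaptor proteins that carry NEDD4-family ubiquitin ligases to membrane proteins. Klf10, a TGF-beta-inducible zinc finger gene, and Rgs16, which encodes a GTPase activator that limits G-protein signalling, are known ChREBP-responsive genes in liver.

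A carbohydrate response element is made of a pair of E-box-like parts a fixed distance apart, and CCAAT boxes often lie near it. The 250 bases upstream of the RefSeq start (GRCm38.p6) are shown for the member with the highest level and for the 2 other members that had an E-box CACGTG and a large difference between the groups. Capitals mark 3 motifs searched on both strands: CACGTG, the looser paired form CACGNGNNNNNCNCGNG (its parts may overlap with the first motif), and the CCAAT box, which reads in reverse complement where it lies on the other strand. The Txnip sequence covers chr3:96557707-96557956 on the plus strand, that of Arrdc4 chr7:68749239-68749488 on the minus strand, and that of the upstream of 2 Mlxipl starts chr5:135089640-135089889 on the plus strand.
Txnip: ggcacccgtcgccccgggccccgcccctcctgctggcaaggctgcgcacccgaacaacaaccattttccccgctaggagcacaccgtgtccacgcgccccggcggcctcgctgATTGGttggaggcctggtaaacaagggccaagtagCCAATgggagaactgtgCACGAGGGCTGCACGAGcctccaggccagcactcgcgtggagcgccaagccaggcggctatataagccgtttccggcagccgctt
Arrdc4: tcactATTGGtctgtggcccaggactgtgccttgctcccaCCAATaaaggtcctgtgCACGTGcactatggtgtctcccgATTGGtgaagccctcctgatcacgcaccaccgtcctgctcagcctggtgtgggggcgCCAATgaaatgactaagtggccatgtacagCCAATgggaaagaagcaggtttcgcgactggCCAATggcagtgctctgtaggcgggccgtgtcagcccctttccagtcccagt
Mlxipl, upstream start: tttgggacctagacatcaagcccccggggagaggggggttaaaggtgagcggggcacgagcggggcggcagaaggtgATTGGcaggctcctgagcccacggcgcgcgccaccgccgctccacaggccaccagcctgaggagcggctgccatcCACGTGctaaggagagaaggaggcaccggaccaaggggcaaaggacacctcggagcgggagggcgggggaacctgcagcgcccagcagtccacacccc

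The Txnip sequence held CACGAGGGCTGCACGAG between 85 and 69 bases before the start, a match to the paired form, with CCAAT boxes on both strands further upstream. The paired form was found in 0.28% of the 32851 promoter sequences of this length, and among the members in Txnip alone of the 9 with an entry. Arrdc4 had a CACGTG between 193 and 188 bases before its start and 6 CCAAT matches. CACGTG was also found upstream of Mlx, and 6.02% of all promoter sequences held it, while 33.8% held CCAAT. Mlxipl has RefSeq starts 17001 bases apart, and CACGTG stood before the upstream start but not in the window before the downstream start. These matches are descriptions of letters, not of binding, and Klf10 had no entry.

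Library totals lay between 11597923 and 13910582 counts, and 12510 genes passed the filter on low counts, all 10 members among them. Acvr2a reads numbered 81 and 108 for the NC libraries against 75 and 97 for the KO libraries, with a log2 fold change of -0.21 (SE 0.20; edgeR quasi-likelihood, adjusted p = 0.433), so its RNA total did not separate the groups, which are named here by their labels. The hepatocyte markers were high in sum, 5579 to 6028 CPM in NC and 4854 to 4985 CPM in KO, although Ttr and Serpina1a were at or near 0. In that list 2 of 8 tested genes rose and 3 fell. The 6 leukocyte markers summed to at most 1.59 CPM, with Cd3e at 0, and the 4 endothelial markers to at most 1.06 CPM, with Cdh5 and Tek at 0. The 4 cholangiocyte markers (Krt7, Krt19 and Epcam higher, Sox9 lower) summed to 197.6 and 216.5 CPM in NC and 254.4 and 235.4 CPM in KO. The 5 stellate or fibroblast markers, nearly all of it Dcn, summed to 1468 and 1479 CPM in NC and 1608 and 1685 CPM in KO. Of the 2 tested in that list 1 rose, Col1a1, from 0.44 ± 0.12 to 2.96 ± 0.11 CPM (SD, n = 2; log2 fold change 2.73, edgeR adjusted p = 3.04e-05). The NC libraries held 6 and 5 of its reads, and the KO libraries 38 and 41. Whether these shifts play a part in the results below was not tested. In bulk RNA, fewer cells with a transcript and less transcript per cell cannot be told apart.

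Txnip and Mlxipl stood out among the 10 genes, each between 5 and 6 times as high in KO as in NC on the count scale. Rgs16, Klf10 and Arrdc4 were about 2-fold higher, Arrdc2 and Arrdc3 were higher by less, and Mlxip slightly so. Mlx was lower in KO and Arrdc1 overlapped between the groups. In the quasi-likelihood fit of edgeR over all genes, the adjusted p of 9 of the 10 was under 0.05, 8 higher and 1 lower, against 37.9% of all genes tested. The CPM (counts scaled to a common library size with TMM factors) of the groups did not overlap for 9 members, against 69.4% of all genes. Both KO libraries were above both NC libraries for 8 members (34.8% of all genes) and below them for 1 (34.7% of all genes). On the fitted scale 4 of the 10 were at least 2-fold higher, against 6.46% of all genes. The median log2 fold change of the 10 was 0.87 and that of all genes -0.0037. Nothing is read from these counts, because results of this contrast were known when the list was made.

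**Figure D1:**
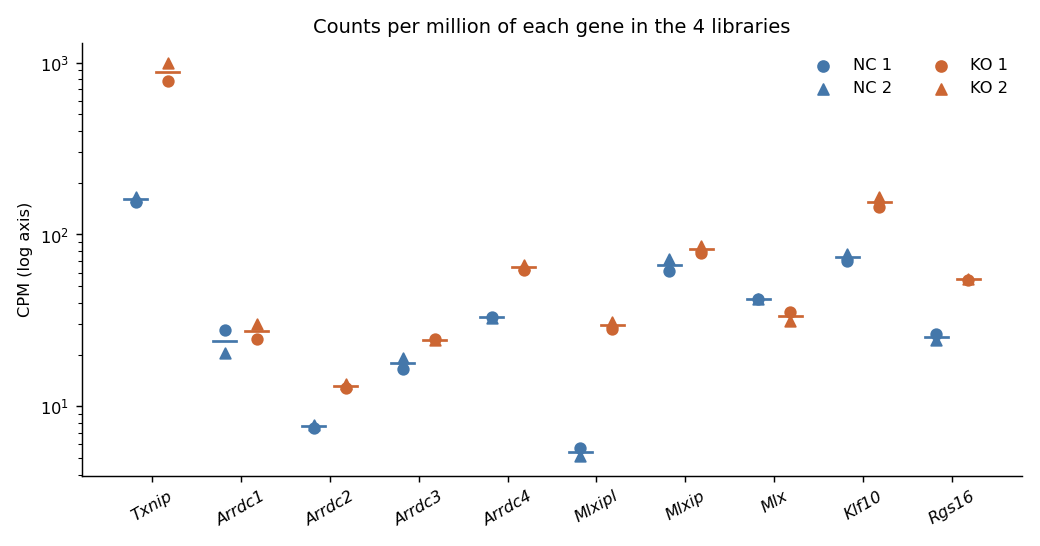
CPM of each of the 10 genes in each library on a log axis, NC in blue and KO in orange, circles for library 1 and triangles for library 2, with a bar at each group mean. Txnip rises from 155.2 and 165.4 CPM in NC to 777.6 and 994.3 CPM in KO, Mlxipl from 5.72 and 5.13 to 28.2 and 31.0 CPM, and only the points of Arrdc1 interleave.

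Txnip (ENSMUSG00000038393.14, chromosome 3, 96557957 to 96561883, plus strand, GRCm38) is the alpha-arrestin that binds thioredoxin. It was counted 1765 times in NC 1 and 2290 times in NC 2, and 10245 times in KO 1 and 13431 times in KO 2. NC libraries averaged 160.3 ± 7.15 CPM (SD, n = 2) and KO libraries 886 ± 153 CPM (SD, n = 2). Both KO libraries lay far above both NC libraries, and KO 2 was 1.28 times as high as KO 1, the widest gap between the KO replicates among the members. The log2 fold change was 2.47 (SE 0.11), and 78 of the 12510 genes had a larger one. Leaving out 1 library at a time gave 2.28 to 2.63. Exons of Txnip overlap those of Gm15441 on the opposite strand, which had 15 to 20 counts in every library. The part of reads assigned to the wrong strand was not tested. Some Txnip reads were shared by RSEM, since the expected count was not whole in 3 libraries. In those libraries that of Gm15441 was not whole either, and the fractions of the 2 genes added to a whole number.

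Arrdc4 (chromosome 7, 68736995 to 68749241, minus strand), the nearest relative of Txnip in its response to glucose, had 33.1 and 32.7 CPM in NC and 62.3 and 66.6 CPM in KO. The replicates lay close together and the groups were well apart. The log2 fold change was 0.97 (SE 0.10) on counts and 1.15 on log2(TPM + 1). TPM (transcript abundance scaled to a fixed total) divides by a length that RSEM weights over a gene's transcripts. That effective length was 1854 and 1785 bases in NC and 1541 and 1706 bases in KO, lower in both KO libraries, which raises the KO level on the TPM scale.

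Arrdc2 (chromosome 8, 70835129 to 70839720, minus strand), an adaptor for internalised receptors, was at 7.48 and 7.80 CPM in NC and 12.8 and 13.4 CPM in KO, with a log2 fold change of 0.78 (SE 0.17). The groups did not overlap, and the replicates within each differed by about 1.04 times. On the TPM scale the KO libraries were further from each other, at 9.20 and 13.9 TPM against 6.13 and 7.56 TPM in NC, with effective lengths of 1614 bases in KO 1 and 1074 bases in KO 2. Arrdc3 (chromosome 13, 80883384 to 80896042, plus strand), which takes part in sorting of beta-adrenergic receptors, had 16.5 and 19.2 CPM in NC and 24.7 and 24.2 CPM in KO. Its log2 fold change was 0.45 (SE 0.13) on counts and 0.72 on log2(TPM + 1). The effective length of Arrdc3 was 1616 bases in KO 1 and between 2230 and 2314 bases in the other 3 libraries, so KO 1 stood apart in its transcript mix and the size of the difference depends on the scale.

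Arrdc1 (chromosome 2, 24925352 to 24935252, minus strand), which drives budding of vesicles from the plasma membrane, had 27.6 and 20.3 CPM in NC and 24.7 and 30.3 CPM in KO. KO 1 fell between the NC libraries. Its log2 fold change was 0.21 (SE 0.14), and it went from -0.0043 without NC 2 to 0.43 without NC 1, so the direction rests on which NC library is used. Arrdc5, the remaining alpha-arrestin and not a member, had 0 counts in every library.

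Per length, Txnip was the largest part of the alpha-arrestin RNA in all 4 libraries, and its share was higher in KO. Txnip made up 55.3% and 57.6% of the summed TPM of Txnip and Arrdc1 to Arrdc5 in NC, and 79.0% and 82.4% in KO. The sum was 130.4 and 135.1 TPM in NC and 466.7 and 553.3 TPM in KO. Without Txnip it was 58.2 and 57.3 TPM in NC and 97.8 and 97.3 TPM in KO. The ratio of Txnip to Arrdc4 was 3.80 and 3.81 in NC and 7.88 and 10.5 in KO.

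**Figure D2:**
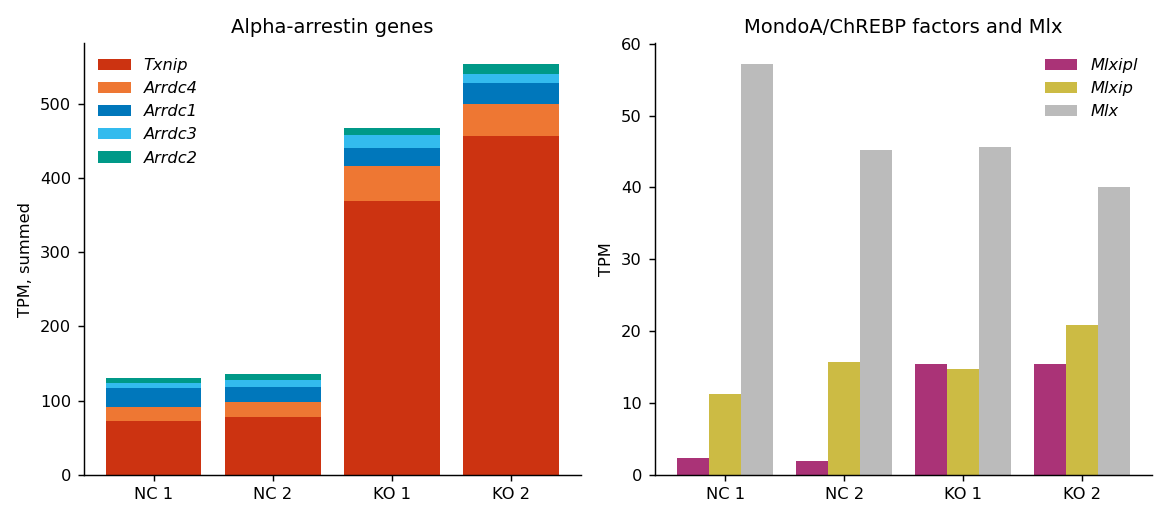
Left, TPM of the 5 expressed alpha-arrestin genes stacked for each library; right, TPM of Mlxipl, Mlxip and Mlx in each library, as side-by-side bars. The Txnip part of the stack grows from 72.2 and 77.9 TPM in NC to 368.9 and 456 TPM in KO, and Mlxipl goes from the shortest bar in NC to the height of Mlxip in KO.

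Mlxipl (ENSMUSG00000005373.13, chromosome 5, 135089890 to 135138382, plus strand) encodes ChREBP, the member of the pair that is most active in liver. The NC libraries held 65 and 71 of its reads, the KO libraries 372 and 419. The NC mean was 5.42 ± 0.42 CPM (SD, n = 2) and the KO mean 29.6 ± 1.97 CPM (SD, n = 2), with the libraries of each group close together. The log2 fold change was 2.45 (SE 0.16), with 2.37 to 2.52 when 1 library was left out, and 82 genes had a larger one. Its level was low in NC, so the NC values rest on few reads.

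Mlxipl is transcribed from more than 1 start, giving the ChREBP-alpha and the shorter ChREBP-beta forms, and the deposited gene totals sum over all of them. GENCODE M21 lists 10 transcripts, of which 1, a processed transcript of 412 bases, begins at the upstream start whose sequence is shown above. The effective length was 2621 and 2878 bases in NC and 2125 and 2237 bases in KO, so the groups did not overlap and the estimated transcript mix was shorter in KO. Transcript-level values are not analysed here, and which form gained reads was not tested. Because of the shorter length, the ratio of the group means was 7.14 on the TPM scale and 5.46 on the CPM scale.

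Mlxip (chromosome 5, 123394798 to 123457932, plus strand), which encodes MondoA, had 61.6 and 71.7 CPM in NC and 78.3 and 86.2 CPM in KO, with a log2 fold change of 0.30 (SE 0.10). The groups did not overlap in CPM. They did in TPM, at 11.2 and 15.7 in NC and 14.7 and 20.8 in KO. Without NC 1 the log2 fold change was 0.19. Mlx (chromosome 11, 101087277 to 101092207, plus strand), the shared partner, was at 42.0 and 42.3 CPM in NC and 35.3 and 31.5 CPM in KO, with a log2 fold change of -0.34 (SE 0.11). In TPM the groups overlapped, at 57.2 and 45.2 in NC and 45.6 and 40.1 in KO. Exons of Mlx overlap those of Psmc3ip on the opposite strand, which had 72 to 110 counts and a log2 fold change of -0.49 (SE 0.20). The expected counts of Mlx were not whole in any library, so RSEM shared some of its reads. Those of Psmc3ip were not whole either, at 99.9 and 110.08 in NC and 86.45 and 71.82 in KO. In each library the fractions of the 2 genes added to a whole number, as for reads split between them across strands. How many reads this concerns, and so how uncertain the Mlx total is, was not tested.

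Mlxipl formed 17.1% and 11.3% of the summed TPM of Mlxipl and Mlxip in NC, and 51.1% and 42.5% in KO. On the CPM scale, which does not correct for the longer Mlxip transcripts, the shares were 8.50% and 6.67% in NC and 26.5% in both KO libraries. The sum of the 2 factors went from 13.6 and 17.7 TPM in NC to 30.1 and 36.2 TPM in KO. Mlx was 4.22 and 2.56 times that sum in NC and 1.52 and 1.11 times in KO. Mlx RNA thus remained above the sum of these 2 factors in every library. Other partners of MLX are not in that sum.

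Klf10 and Rgs16 were each about 2-fold higher in KO. Klf10 (ENSMUSG00000037465.10, chromosome 15, 38291463 to 38300706, minus strand) had 70.5 and 76.7 CPM in NC and 145.4 and 164.9 CPM in KO, with a log2 fold change of 1.08 (SE 0.10). Rgs16 (ENSMUSG00000026475.7, chromosome 1, 153740349 to 153745468, plus strand) had 26.3 and 24.2 CPM in NC and 54.7 and 55.3 CPM in KO, with a log2 fold change of 1.13 (SE 0.11). Neither gene's groups overlapped in CPM or TPM. Rgs16 has a single annotated transcript, so its length did not vary with a transcript mix. Its exons overlap Gm28513 on the opposite strand, which had at most 3 counts. The expected counts of Rgs16 and Gm28513 were not whole in the same 3 libraries, where their fractions added to a whole number.

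**Figure D3:**
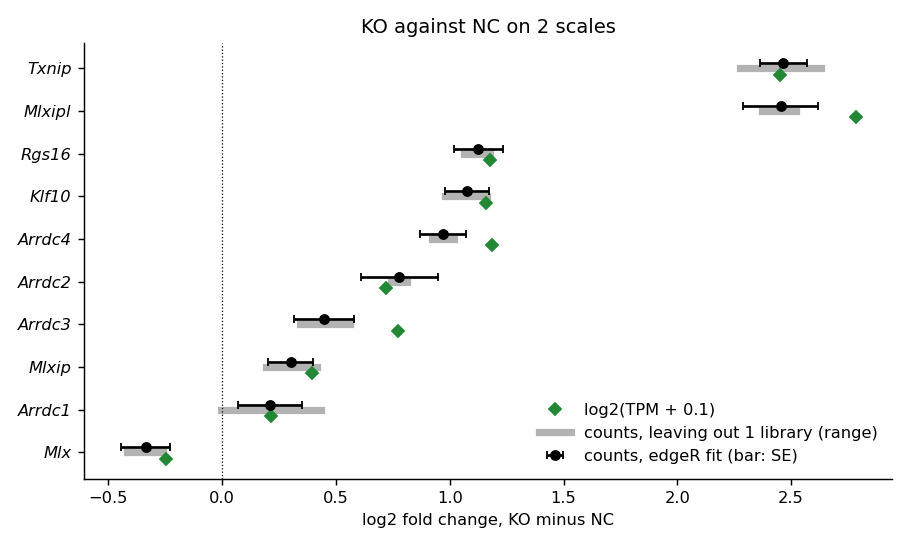
Log2 fold change, KO minus NC, of each gene: black points with SE bars from the edgeR fit on counts, grey bars for the range when 1 library is left out, green diamonds from log2(TPM + 0.1). Txnip (2.47) and Mlxipl (2.45) lie far to the right, and the diamonds of Mlxipl (2.78), Arrdc4 (1.19) and Arrdc3 (0.77) lie beyond the SE bars.

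The order of the levels was read from TPM. In NC it ran Txnip (75.0 TPM), Mlx (51.2), Klf10 (28.6), Arrdc1 (22.6), Arrdc4 (19.7), Mlxip (13.5), Rgs16 (13.1), Arrdc3 (8.56), Arrdc2 (6.85) and Mlxipl (2.16 TPM), as means of 2 libraries. Arrdc1 and Arrdc4 overlapped, as did Mlxip and Rgs16. In KO it ran Txnip (412.4 TPM), Klf10 (64.1), Arrdc4 (45.1), Mlx (42.9), Rgs16 (29.7), Arrdc1 (26.1), Mlxip (17.8), Mlxipl (15.4), Arrdc3 (14.9) and Arrdc2 (11.5 TPM). Arrdc4 and Mlx overlapped, and so did each neighbouring pair from Mlxip down. Txnip was first in both groups, while Mlxipl left the last place it held in NC.

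The genes whose profile over the 4 libraries lay nearest to that of Txnip, by Euclidean distance of log2 CPM centred on each gene's mean among 9900 candidates, were Cd74 (distance 0.13), Rnase1 (0.17), Zcchc24 (0.19), Efna3 (0.22) and Kifc2 (0.23). Their log2 fold changes were 2.45, 2.55, 2.33, 2.39 and 2.69. With 4 libraries this likeness mainly says that these genes differed between the groups by about as much as Txnip did.

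The pathway around these genes was covered by 8 lists of 87 other gene symbols, which hold Vps26c also under its older symbol Dscr3. Of these symbols 65 were tested. In edgeR's quasi-likelihood test 22 rose and 15 fell at an adjusted p of 0.05 over all genes, while 19.7% of all genes rose and 18.2% fell. Adjusted p-values below are from that test. The lists, like the members, were chosen with earlier results of these data known, so their counts, medians and adjusted p-values are descriptions. Of these 37 calls 8 were lost with DESeq2, and 20 held under each alternative on counts. In both filtered TPM fits 18 were lost: Arrb1, Ddit4, Hk2, Hkdc1, Klf16, Max, Me1, Mga, Mycl, Prdx1, Slc2a1, Smurf1, Srxn1, Tkfc, Txn1, Txnrd2, Wwp1 and Wwp2.

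Known ChREBP and MondoA targets other than the members moved in both directions. Of 20 listed, 15 were tested, 3 rose, 4 fell and 8 did not pass, which is 46.7% called against 37.9% of all genes. The median log2 fold change was -0.049, and it was 0.047 on log2(TPM + 1) and 0.032 without KO 2. The genes that rose act in fructose use and malonyl-CoA supply. Acacb, an acetyl-CoA carboxylase, went from 2.25 ± 0.70 to 5.87 ± 1.33 CPM (SD, n = 2; log2 fold change 1.36, adjusted p = 0.000577). Khk, ketohexokinase, rose by 1.13 on the log2 scale (adjusted p = 0.00606) and Tkfc, triokinase, by 0.41 (adjusted p = 0.0205).

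Among the genes that fell, Mid1ip1, an activator of acetyl-CoA carboxylase, went from 135.4 ± 18.2 to 75.8 ± 2.77 CPM (SD, n = 2; log2 fold change -0.84, adjusted p = 2.47e-07). Elovl6, a fatty acid elongase, changed by -0.59 (adjusted p = 3.31e-05), and Me1, malic enzyme, by -0.29 (adjusted p = 0.0137). Fasn (log2 fold change 0.010, SE 0.10), Acly (0.13), Scd1 (-0.14), Acaca (-0.20) and Pklr (-0.049), the liver pyruvate kinase gene and a classical ChREBP target, did not pass. Thrsp, G6pc and Fgf21 had 0 counts. The calls for Khk and Tkfc were lost with DESeq2; leaving out KO 1 ended that for Khk, NC 2 or KO 2 that for Tkfc, and NC 2 or KO 1 that for Me1.

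In the thioredoxin system, which includes the binding partners of TXNIP, more genes fell than rose. Of 13 tested genes 6 fell, 3 rose and 4 did not pass, with a median of -0.15, or -0.0053 on log2(TPM + 1). The called share was 69.2%, against 37.9% of all genes. Txn1, thioredoxin itself, went from 310.3 ± 26.0 to 238.4 ± 2.05 CPM (SD, n = 2; log2 fold change -0.38, adjusted p = 0.00181). Mitochondrial Txn2 had a log2 fold change of -0.50 (adjusted p = 0.000195). The peroxiredoxin genes Prdx3 (-0.87, adjusted p = 8.61e-08), Prdx6 (-0.39, adjusted p = 0.00146) and Prdx1 (-0.25, adjusted p = 0.0410) were lower, as was Txnrd2 (-0.47, adjusted p = 0.0316). Prdx5 (0.37, adjusted p = 0.00387), Srxn1, which encodes sulfiredoxin (0.36, adjusted p = 0.00965), and Ddit4 (0.28, adjusted p = 0.0164) were higher, and all 3 calls were lost without NC 2. Without NC 1 the calls for Txn1, Txnrd2 and Prdx1 were lost, without KO 1 that for Prdx1, and without KO 2 those for Txnrd2 and Srxn1. With DESeq2 the calls for Txnrd2 and Srxn1 were lost, and with library totals that for Prdx1. Per length, the ratio of Txnip to Txn1 was 0.168 and 0.193 in NC and 1.08 and 1.39 in KO. Nlrp3, which encodes an inflammasome sensor that binds TXNIP, had 4 counts in all libraries together.

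Of the NEDD4-family ligases, 8 of 9 were tested and 3 passed. Smurf1 rose (log2 fold change 0.33, adjusted p = 0.00749), and Wwp2 (-0.32, adjusted p = 0.0189) and Wwp1 (-0.27, adjusted p = 0.0287) fell. Nedd4, the most abundant at 635.8 to 720.7 CPM, had a log2 fold change of 0.0066 (SE 0.10), and Itch one of 0.11, neither past the threshold. The list's share of calls, 37.5%, was near the 37.9% of all genes. On the TPM scale Wwp2 turned positive, and the calls for Wwp1 and Wwp2 were lost with DESeq2 and without NC 2, that for Wwp1 also without KO 1 and with library totals, that for Wwp2 without KO 2 and that for Smurf1 without NC 1.

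Arrestin-fold genes outside the alpha-arrestins moved in both directions. The beta-arrestin genes Arrb1 (log2 fold change 0.67, adjusted p = 2.28e-05) and Arrb2 (0.55, adjusted p = 6.14e-05), which desensitise G-protein-coupled receptors, rose. Vps26a, a retromer subunit, went from 90.6 ± 6.99 to 49.1 ± 0.14 CPM (SD, n = 2; log2 fold change -0.88, adjusted p = 7.97e-08), and Vps26b and Vps26c did not pass. The median of the 5 tested was -0.057, and 60% of them were called, against 37.9% of all genes.

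MLX belongs to a wider network with MAX, MYC and the MXD repressors. All 10 listed genes were tested, 4 rose and 1 fell, with a median of 0.24. The called share was 50%, against 37.9% of all genes. Mxd4, a MYC antagonist, rose most, from 17.1 ± 0.20 to 45.3 ± 4.50 CPM (SD, n = 2; log2 fold change 1.40, adjusted p = 8.15e-10). Mxi1 (0.53, adjusted p = 8.47e-05), Mycl (0.72, adjusted p = 0.00141) and Mga (0.34, adjusted p = 0.0188) rose as well. Max fell (-0.45, adjusted p = 0.000448), and Myc had a log2 fold change of -0.24 (adjusted p = 0.0593). The call for Mga was lost with DESeq2 and without NC 2 or KO 2, and that for Mycl without KO 1. Among these 10 genes Max and Myc were the 2 with negative values, as Mlx was among the members.

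Of the relatives of Klf10, Klf11, the other TGF-beta-inducible early gene of this type, rose from 6.85 ± 1.01 to 14.5 ± 0.17 CPM (SD, n = 2; log2 fold change 1.09, adjusted p = 1.74e-05). Klf16 fell (-0.45, adjusted p = 0.00116), Klf9 (0.14) and Klf13 (-0.055) did not pass, and Klf14 had 0 counts. The median of the 4 tested was 0.045, and 50% of them were called, against 37.9% of all genes. Of the 9 other R4-type RGS genes 2 were tested, and 50% of these were called. Rgs3 rose from 19.5 ± 0.26 to 43.0 ± 3.53 CPM (SD, n = 2; log2 fold change 1.14, adjusted p = 2.41e-08), near the value for Rgs16, and Rgs5 (0.59, SE 0.44) did not pass. The other 7 had at most 6 counts in all libraries together.

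Genes for glucose uptake and first phosphorylation, the step that feeds the MondoA and ChREBP signal, were mostly higher. The list also holds Gpi1 and G6pdx, whose enzymes act on glucose 6-phosphate after that step, and the counts and median include them. Of 8 tested 7 rose, 0 fell and 1, G6pdx (log2 fold change 0.13, adjusted p = 0.251), did not pass, with a median of 0.41. The called share was 87.5%, against 37.9% of all genes. Slc2a3, a high-affinity glucose transporter gene, had 47.1 and 48.5 CPM in NC and 80.6 and 97.3 CPM in KO (log2 fold change 0.90, adjusted p = 1.38e-07). Slc2a8 (0.94, adjusted p = 7.48e-06), Gpi1 (0.43, adjusted p = 0.000622), Hk1 (0.39, adjusted p = 0.00110), Hk2 (0.36, adjusted p = 0.00530), Hkdc1 (1.06, adjusted p = 0.0165) and Slc2a1 (0.28, adjusted p = 0.0184) rose too. Slc2a2, the liver glucose transporter gene, which was placed in the ChREBP and MondoA target list, had 1 count in all libraries together. The calls for Slc2a1 and Hk2 were lost without NC 1 or KO 1, that for Slc2a1 also without NC 2, and that for Hkdc1 with DESeq2 and without NC 1, KO 1 or KO 2.

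**Figure D4:**
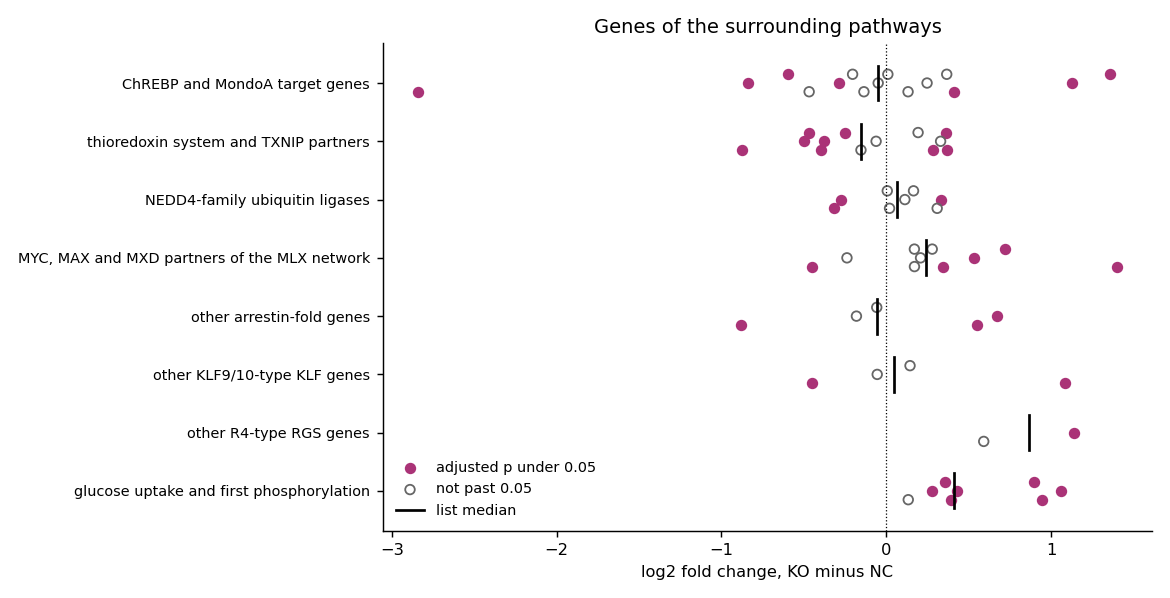
Log2 fold change, KO minus NC, of each tested gene in the 8 lists: filled points have an edgeR adjusted p under 0.05, open points do not, and the bar is the list median. ChREBP and MondoA targets spread on both sides of 0 (median -0.049). All 8 tested genes of the glucose uptake list, Gpi1 and G6pdx among them, lie to the right (median 0.41).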

How the data were processed

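Total RNA was extracted with TRIzol, treated with DNase and made into libraries with a directional kit, per the labels' protocols. The deposited expected counts are estimated counts per gene, not normalised, and the TPM values were scaled by the authors for length and to a fixed total; both have the column names of RSEM output, per the file headers. FastQC, STAR, RSEM, DESeq2 and GRCm38 are named in the submitters' processing notes, without versions. The annotation release and the strand setting of the counting are not given in the sources used here. The effective length is RSEM's, in bases, per the file headers.

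Expected counts were rounded, which changed each total by at most 0.000188%. Groups were compared with edgeR 4.0.16 in R 4.3.3 (filterByExpr, TMM, quasi-likelihood test, group as the only term, Benjamini-Hochberg threshold 0.05). TMM factors lay between 0.981 and 1.02. Standard errors were computed from each gene's fitted means, its dispersion and its shrunken quasi-dispersion (prior degrees of freedom 25.8). With 2 libraries a group the spread is borrowed across genes and covers these cultures only. Coordinates, transcripts and exon overlaps come from GENCODE M21 (GRCm38), promoter sequences from RefSeq (GRCm38.p6). The procedures were run on simulated counts with few changed genes, the same dispersion for all genes and no transcript lengths. That run does not test the TPM fits as they were used here. Alternatives used DESeq2 1.42.0, limma 3.58.1 on log2(TPM + 1) and log2(TPM + 0.1), other filters and scaling, a replicate block and leaving out each library.

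The members and lists were chosen with earlier results of these data known. Genes named are the 10 members, the up to 6 genes per list with the lowest p past 0.05, list genes needed to account for a list, and the 5 genes nearest to Txnip with a mean log2 CPM of at least 2, predicted genes left out. Some genes of the lists enter the counts and medians but are not reported here by name.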

Additional observations from a re-analysis of the deposited data

How the results depend on the processing

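With 2 libraries a group the spread of any 1 gene is poorly known, and Mlxipl in NC, Khk and Hkdc1 rest on few reads. The count of genes past 0.05 was 4741, and it stayed within 1.5 times of that under RLE factors, library totals, both other count filters, DESeq2 (3217 genes, 3209 of them among the 4741), the replicate block and each fit without 1 library (3507 to 4488). On log2(TPM + 1) limma called 2158 genes (1467 higher, 691 lower; 68% higher against 51.9%), on log2(TPM + 0.1) 2099 (1427 higher, 672 lower). Without a filter it called 0, in either direction, with 4506 of 20640 at an unadjusted p under 0.05. The cause was not tested. The number of the 10 members past 0.05 was 9 in the edgeR fit, 6 with DESeq2 and in both filtered TPM fits, 0 in the unfiltered one and 7 to 9 without 1 library, and it was 9 in the other count fits. 37 list genes were called, and the unfiltered TPM fit left 0 of them called.

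With pseudocount 1, filtered or not, the log2 fold change was 0.66 for Arrdc2, 0.72 for Arrdc3, 1.15 for Arrdc4 and -0.24 for Mlx; with 0.1 these were 0.72, 0.77, 1.19 and -0.25, and Mlxipl had 2.78. Wwp2 reversed to 0.024 with pseudocount 1 and 0.025 with 0.1. List medians that moved by more than the spread between replicates went as follows: ChREBP and MondoA targets to 0.047 in each TPM fit; the thioredoxin system to -0.0053, -0.0054 and, unfiltered, -0.0022; arrestin-fold genes to -0.0014 in both filtered TPM fits, -0.092 unfiltered and -0.025 with library totals; the MLX network to 0.28 with library totals and 0.31 with pseudocount 0.1; RGS genes to 0.056 with unfiltered TPM; glucose uptake to 0.65 without the count filter. Within that spread but by over 1.5 times, the KLF median of 0.045 went to 0.077 with library totals and 0.019 in the TPM fits, and the ChREBP and MondoA target median of -0.049 to -0.016 with library totals.

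Without 1 library, log2 fold changes ranged from 2.28 to 2.63 for Txnip, 0.34 to 0.56 for Arrdc3, 0.92 to 1.02 for Arrdc4, -0.42 to -0.26 for Mlx and 1.06 to 1.18 for Rgs16. List medians ranged from -0.11 to 0.032 for ChREBP and MondoA targets, -0.17 to -0.12 for the thioredoxin system, 0.0012 to 0.14 for NEDD4-family ligases, 0.22 to 0.32 for the MLX network, -0.092 to -0.026 for arrestin-fold genes, 0.0031 to 0.082 for KLF genes, 0.61 to 1.19 for RGS genes and 0.38 to 0.45 for glucose uptake.

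NC and KO share replicate numbers, but the deviations of NC 1 and KO 1 from their group means did not correlate (r = -0.012 across genes), so the numbers are not shown to pair the samples. With the replicate block 5006 genes passed (2586 higher, 2420 lower), 4711 of them among the 4741, and 9 members; the log2 fold change of Txnip was 2.46.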
